A study of Rattus norvegicus with 24 samples.

Results

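The genes of antigen presentation and of the immunoproteasome were followed through the nucleus accumbens (NAc) of male rats with a history of immune stimulation, heroin, or both. The 10 genes were B2m, Cd74, RT1-Da, RT1-Ba, RT1-Bb, RT1-Db1, Tap1, Tap2, Psmb8 and Psmb9, chosen by symbol. The 10 symbols matched 11 of the 32545 rows of the expression table, since 2 rows carried the symbol Tap2. The NAc is the part of the ventral striatum through which opioid reward acts, and each library was made by poly-A selection from 300 ng of total RNA of the dissected region (core and shell).

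All rats were outbred Sprague Dawley males, 8 weeks of age on arrival. In the injection experiment, rats first received 5 intraperitoneal (IP) doses of saline or of 250 µg/kg lipopolysaccharide (LPS), a bacterial cell wall component that activates innate immunity. By the labels, 1 week later they received saline or heroin IP for 5 days, the heroin dose rising from 1 to 5 mg/kg, and were killed 1 h after the last injection. This gave the 4 groups LPS-Heroin, Saline-Heroin, LPS-Saline and Saline-Saline, each named by its first and second treatment. In the self-administration (SA) experiment, rats with an intravenous catheter took saline (Saline-SA) or heroin at 0.075 mg/kg per infusion (Heroin-SA) for 6 h a day over 10 daily sessions, and were killed directly after the last. Each of the 6 groups held 4 libraries, 24 in all, from unpooled tissue. p-values measure the spread between these libraries. The injection rats were housed in pairs and the SA rats singly after surgery, so the experiments differed in more than the drug.

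Cells present antigen by 2 routes. In the class I route the proteasome cuts proteins of the cell itself, the transporter Tap1-Tap2 carries the peptides into the endoplasmic reticulum, and they are loaded on a class I heavy chain paired with β2-microglobulin (B2m). Under interferon-γ the catalytic subunits Psmb8 and Psmb9 replace Psmb5 and Psmb6 and turn the proteasome into the immunoproteasome. In the class II route the α and β chains, in the rat RT1-Da with RT1-Db1 and RT1-Ba with RT1-Bb, assemble on the invariant chain Cd74, and the route belongs to macrophages, dendritic cells and B cells. In resting brain, class II is found mainly on macrophages of the meninges and vessels and little on microglia of the parenchyma. RT1 is the major histocompatibility complex of the rat, and its genes are among the most variable between individuals.

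In rn6, the build of the table, most members lie in the RT1 region of chromosome 20. Psmb9 (chr20:3973420-3978845), Tap1 (chr20:3979035-3989669) and Psmb8 (chr20:3990613-3993769) form a cluster with 1 of the Tap2 rows. The class II genes follow with RT1-Bb (chr20:4039413-4049711), RT1-Ba (chr20:4066132-4070721), RT1-Db1 (chr20:4087618-4097190) and RT1-Da (chr20:4127644-4132616). Cd74 lies outside at chr18:56071478-56080849 and B2m at chr3:114087287-114093309. No other annotated gene overlaps any of them.

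The promoters of these genes are printed because the class II genes share a control module and the class I genes another. The factors RFX, CREB and NF-Y bind the X and Y boxes of class II promoters and recruit the transactivator Ciita, whereas class I genes respond to interferon and NF-κB. All 10 symbols had a promoter in RefSeq, build GRCr8, which is another build than that of the expression table. Capitals in the first set mark the Y box CTGATTGG and the X box core AGCAAC, and the windows run 5′ to 3′ on the strand of the gene.
RT1-Da, chr20:4515306-4515395, plus strand: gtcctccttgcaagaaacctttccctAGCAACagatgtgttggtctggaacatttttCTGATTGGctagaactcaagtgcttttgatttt
RT1-Db1, chr20:4560212-4560301, minus strand: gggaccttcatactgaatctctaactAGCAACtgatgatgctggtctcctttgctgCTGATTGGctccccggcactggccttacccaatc
RT1-Ba, chr20:4576967-4577056, plus strand: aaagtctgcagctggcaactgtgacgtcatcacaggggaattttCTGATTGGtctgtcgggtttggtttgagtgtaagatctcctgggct
RT1-Bb, chr20:4604134-4604223, minus strand: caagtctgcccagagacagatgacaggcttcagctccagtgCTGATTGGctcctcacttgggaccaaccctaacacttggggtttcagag
Cd74, chr18:56527093-56527182, plus strand: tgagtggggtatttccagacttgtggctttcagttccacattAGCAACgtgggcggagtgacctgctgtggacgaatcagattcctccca
The Y box stood in RT1-Da, RT1-Db1, RT1-Ba and RT1-Bb, at positions −52, −83, −46 and −64 from the start site, and in Psmb9 at position 19 after it. Of 33469 promoters of the same length (300 bases), 3.5% held it on either strand. The X box core stood in RT1-Da, RT1-Db1 and Cd74, and in Tap2 at position −161, outside the windows shown, and 14.7% of all promoters held it. In RT1-Da and RT1-Db1 the X box core preceded the Y box.

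Capitals in the second set mark the interferon response core AAANNGAAA and the NF-κB site GGGACTTTC, each on either strand, so that some are written in their reverse reading. The promoter of Psmb9 held neither motif and is not printed.
B2m, chr3:129549147-129549236, plus strand: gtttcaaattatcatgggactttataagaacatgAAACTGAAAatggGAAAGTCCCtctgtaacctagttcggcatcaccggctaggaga
Tap1, chr20:4668582-4668672, minus strand: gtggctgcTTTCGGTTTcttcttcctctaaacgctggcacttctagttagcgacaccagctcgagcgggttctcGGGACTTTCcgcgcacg
Tap2, chr20:4652297-4652386, minus strand: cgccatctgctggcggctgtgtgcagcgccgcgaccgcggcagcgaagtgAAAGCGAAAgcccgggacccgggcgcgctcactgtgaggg
Psmb8, chr20:4657027-4657116, minus strand: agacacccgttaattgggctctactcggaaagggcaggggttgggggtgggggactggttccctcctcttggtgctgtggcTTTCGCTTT
The interferon response core stood in B2m, Tap1, Tap2 and Psmb8, and 11.8% of all promoters held it. B2m and Tap1 held the NF-κB site, which stood in 0.326% of all promoters. The GAS element TTCNNNGAA stood in Psmb8 alone among the 10, and in 8.87% of all promoters. These are matches of letters, and no binding was measured.

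Each library held 12312878 to 18850240 reads on genes. Levels are given as FPKM, fragments per kilobase of gene and per unit of library depth, which allows genes to be compared by length. The tissue carried its labelled identity, with 8 of 8 medium spiny neuron markers detected and a summed level of 1116 to 3052 FPKM. Mitochondrial genes took 6.82 to 9.10% of the reads in the injection experiment and 10.0 to 15.9% in the SA experiment, and no treatment effect was tested across the experiments. Some libraries stood apart in marker lists of other cell types. Saline-Saline 1 had a summed choroid plexus marker level of 329.5 FPKM against 1.27 to 26.6 FPKM in the others. LPS-Saline 4 had the highest summed level of the fibroblast and meninges markers, 48.9 FPKM, and the highest value of 7 of the 11 member rows. Saline-SA 4 had a neutrophil and monocyte marker sum of 45.4 FPKM, against 0.300 to 5.74 FPKM in the others. Of this sum Ly6g6e gave 32.2 FPKM, S100a9 7.17 and S100a8 5.99. The other markers of the list did not follow, with Mpo at most 0.0787 FPKM and Ccr2 at 0 reads in all 24 libraries. Red blood cell markers summed to 672 FPKM in Heroin-SA 4 and 611 FPKM in Saline-SA 4, against 81.7 to 367 FPKM in the others. In bulk tissue, fewer cells of a type and less RNA per cell cannot be told apart.

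B2m was the most abundant member, at 109 to 177 FPKM, which rested on 2886 to 4773 reads per library. Cd74 followed at 2.15 to 18.8 FPKM, and the other members lay below 3 FPKM in each library. Among the class II chains, RT1-Da reached 2.90 FPKM, whereas RT1-Db1, RT1-Ba and RT1-Bb did not pass 0.908 FPKM in any library. RT1-Ba was at 0 reads in 9 libraries, RT1-Bb in 6 and RT1-Db1 in 1, and their highest counts were 17, 38 and 20 reads. The median of Psmb9 was 1.45 FPKM and that of Psmb8 0.981 FPKM, against 108 FPKM for Psmb5, 113 FPKM for Psmb6 and 50.7 FPKM for Psmb7, the standard catalytic subunits. Psmb10, the third inducible subunit, had a median of 18.9 FPKM.

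**Figure D1:**
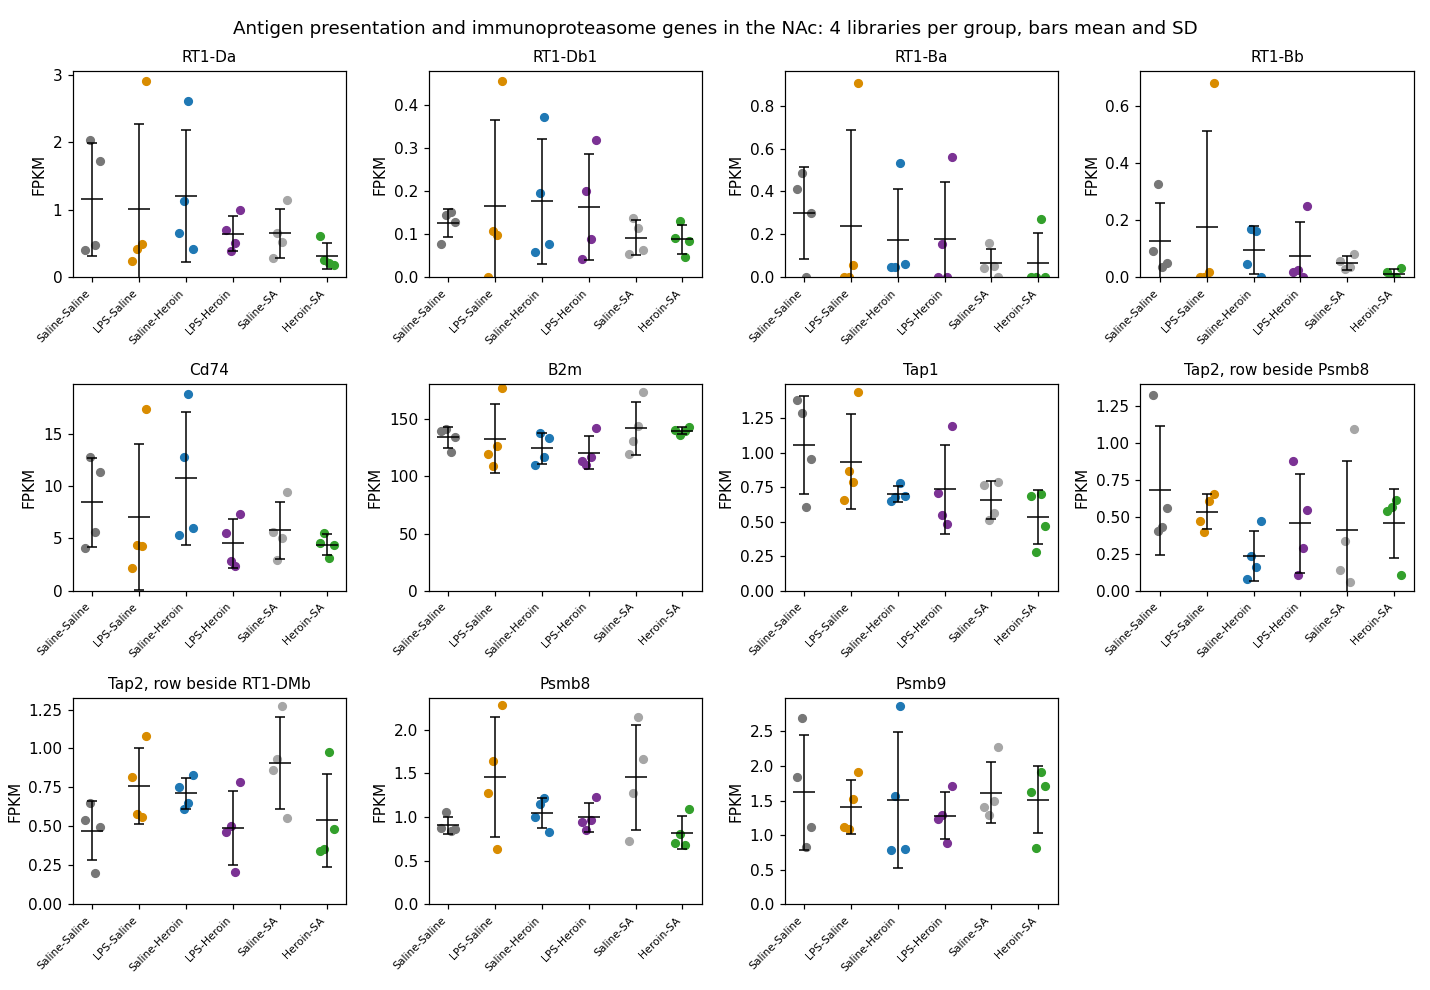
FPKM (y axis, linear) of the 11 member rows in the 6 groups (x axis), with 1 point per library and bars for the mean and SD of 4 libraries. B2m lies between 109 and 177 FPKM in every group, whereas Cd74 and RT1-Da spread from 2.15 to 18.8 and from 0.186 to 2.90 FPKM with LPS-Saline 4 and Saline-Heroin 3 on top.

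Cd74, the chaperone of class II chains, was measured with 44 to 396 reads per library. It stood at 4.06, 12.8, 5.59 and 11.4 FPKM in the Saline-Saline libraries (8.46 ± 4.28, SD, n = 4). It stood at 2.15, 4.37, 4.28 and 17.4 FPKM in LPS-Saline (7.05 ± 6.97). It stood at 5.36, 12.8, 18.8 and 6.04 FPKM in Saline-Heroin (10.8 ± 6.34). The groups overlapped, and within each of these 3 groups the highest library was more than 3-fold above the lowest. The LPS-Heroin libraries had 5.53, 2.87, 2.40 and 7.35 FPKM of Cd74 (4.54 ± 2.33). Saline-SA had 5.65, 2.95, 5.03 and 9.45 FPKM (5.77 ± 2.71), and Heroin-SA had 4.59, 5.56, 3.10 and 4.35 FPKM (4.40 ± 1.01). The group means thus ran from Saline-Heroin down to Heroin-SA, with LPS-Heroin the lowest of the injection groups.

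RT1-Da, the α chain of the class II D molecule, showed a like spread with 7 to 100 reads. It stood at 0.397, 2.03, 0.471 and 1.72 FPKM in Saline-Saline (1.15 ± 0.842, SD, n = 4). It stood at 0.244, 0.414, 0.495 and 2.90 FPKM in LPS-Saline (1.01 ± 1.26). It stood at 0.651, 1.12, 2.61 and 0.424 FPKM in Saline-Heroin (1.20 ± 0.985). In each of these groups 1 or 2 libraries stood well above the rest, and they were among the libraries high in Cd74. LPS-Heroin had 0.695, 0.383, 0.511 and 0.990 FPKM (0.645 ± 0.264). Saline-SA had 0.277, 0.656, 0.524 and 1.14 FPKM (0.650 ± 0.363), and Heroin-SA 0.609, 0.248, 0.208 and 0.186 FPKM (0.313 ± 0.199). Heroin-SA was the lowest group mean, and its libraries overlapped those of every other group.

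The class II chains RT1-Db1, RT1-Ba and RT1-Bb were near the detection limit. RT1-Db1, the β chain that pairs with RT1-Da, ranged from 0 to 0.455 FPKM, and its group means lay between 0.0876 FPKM in Heroin-SA and 0.176 FPKM in Saline-Heroin. RT1-Ba, the α chain of the B molecule, ranged from 0 to 0.908 FPKM. RT1-Bb, its β chain, ranged from 0 to 0.682 FPKM and had 0, 0, 1 and 38 reads in the LPS-Saline libraries. All 3 had their highest value in LPS-Saline 4.

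B2m, the light chain of class I, had the narrowest spread. Its means were 142 ± 23.3 FPKM for Saline-SA, 139.9 ± 3.14 for Heroin-SA, 134 ± 9.07 for Saline-Saline, 133 ± 30.1 for LPS-Saline, 125 ± 13.5 for Saline-Heroin and 121 ± 14.5 for LPS-Heroin (SD, n = 4). The within-group SD of B2m on the log2 scale was 0.19, at percentile 46.2 of the genes with a mean of at least 0.5 FPKM, so B2m varied about as much as a typical gene. LPS-Saline 4 and Saline-SA 4 were the highest libraries, at 177 and 173.5 FPKM.

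Tap1, a chain of the peptide transporter, had 17 to 92 reads. It stood at 1.38, 1.29, 0.604 and 0.955 FPKM in Saline-Saline (1.06 ± 0.354, SD, n = 4). It stood at 0.656, 0.868, 0.785 and 1.44 FPKM in LPS-Saline (0.937 ± 0.346), and at 0.651, 0.680, 0.783 and 0.690 FPKM in Saline-Heroin (0.701 ± 0.0569). LPS-Heroin had 0.712, 0.553, 0.481 and 1.20 FPKM (0.736 ± 0.323). Saline-Heroin was the tightest group, and both heroin-injected groups had lower means than both saline-injected ones with overlapping libraries. Saline-SA and Heroin-SA had means of 0.659 ± 0.139 and 0.534 ± 0.198 FPKM.

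Psmb8, the inducible counterpart of Psmb5, stood at 0.872, 1.05, 0.840 and 0.858 FPKM in Saline-Saline (0.906 ± 0.0999, SD, n = 4). In LPS-Saline it stood at 1.28, 1.64, 0.636 and 2.29 FPKM (1.46 ± 0.689). LPS-Saline thus held both the lowest and the highest library of the 24. Saline-Heroin and LPS-Heroin had means of 1.05 ± 0.172 and 0.995 ± 0.164 FPKM. Saline-SA had 0.727, 1.27, 2.15 and 1.67 FPKM (1.46 ± 0.605), and Heroin-SA 0.702, 0.802, 0.685 and 1.09 FPKM (0.821 ± 0.190). In the SA experiment 3 of the 4 saline libraries lay above all 4 heroin libraries and the fourth lay among them.

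Psmb9, the inducible counterpart of Psmb6, had group means within 1.28 ± 0.339 FPKM in LPS-Heroin and 1.62 ± 0.834 FPKM in Saline-Saline (SD, n = 4). It ranged from 0.783 FPKM in Saline-Heroin 1 to 2.87 FPKM in Saline-Heroin 3, so a single group held both ends.

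In the order of group means, none of the 55 pairs of neighbouring groups (5 for each of 11 rows) differed at an unadjusted p of 0.05 in a two-sided exact permutation test. The smallest p was 0.0571, for RT1-Bb in Saline-SA against Heroin-SA, with a Benjamini-Hochberg adjusted p of 1.00. The smallest value that 4 against 4 libraries can give is 0.0286. Of the 55 pairs, 34 lay within an experiment and 21 set an injection group beside an SA group, which differ in more than the drug. Every neighbouring pair had overlapping libraries, so the order of neighbouring groups is not established for any member. Neighbours in an order of means differ least by construction, and groups further apart were not put to this test.

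Differential expression was tested with limma across all genes with a mean of at least 0.5 FPKM in the groups compared. A differentially expressed gene (DEG) had an unadjusted p of at most 0.05 and a change of at least 1.30-fold in either direction, the limits of the study's pattern analysis. No gene of the table passed an adjusted p under 0.05 in any of the 9 comparisons, where 607 to 1725 genes had an unadjusted p under 0.05. RT1-Db1, RT1-Ba and RT1-Bb fell below the filter in every comparison.

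LPS alone left the members without a DEG. In LPS-Saline against Saline-Saline 0 of 8 tested member rows were DEGs, against 2.37% of all genes, with 0 at an unadjusted p under 0.05. The median log2 fold change of the members was −0.12 and that of all genes 0.01. The changes nearest to the limits were those of the RT1-DMb-side Tap2 row (0.62, SE 0.41) and Psmb8 (0.52, SE 0.36), for which limma gave adjusted p of 0.793 and 0.803.  Without LPS-Saline 3, Psmb8 passed the DEG limits (0.84, limma), and without LPS-Saline 4, Cd74 passed them in the other direction (−1.12).

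Heroin injections alone gave the same count. In Saline-Heroin against Saline-Saline 0 of 7 tested member rows were DEGs, against 3.07% of all genes. The log2 fold change was −0.48 (SE 0.30) for Tap1, 0.31 (SE 0.48) for Cd74 and −0.11 (SE 0.09) for B2m. Without Saline-Saline 3, Tap1 passed the limits at −0.70. The Psmb8-side Tap2 row lay below the filter and passed the limits at −1.21 in a fit without it (adjusted p = 0.830, limma), on 3 to 14 reads in the Saline-Heroin libraries.

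The combined treatment gave 0 DEGs among 7 tested member rows against Saline-Saline, where 5.43% of all genes were DEGs. Of these 7, 6 had a negative log2 fold change, and their median was −0.49. Cd74 had −0.87 (SE 0.45), with an adjusted p of 0.526 by limma, and passed the DEG limits without Saline-Saline 1 (−1.17) or without LPS-Heroin 4 (−1.15). In LPS-Heroin against LPS-Saline 0 of 7 were DEGs, against 2.29% of all genes, with log2 fold changes between −0.60 for the RT1-DMb-side Tap2 row and −0.08 for RT1-Da. Without LPS-Saline 3, Psmb8 became a DEG there (−0.72).

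Cd74 was lower in LPS-Heroin than in Saline-Heroin and was the only member DEG of the pairwise comparisons. There, 1 of 7 tested member rows was a DEG, against 2.2% of all genes. The log2 fold change was −1.18 (SE 0.47, 95% interval −2.25 to −0.11), and the adjusted p was 1.00 by limma. LPS-Heroin had 2.40 to 7.35 FPKM and Saline-Heroin 5.36 to 18.8 FPKM, so the groups overlapped. RT1-Da had −0.59 (SE 0.53) and the other 5 rows between −0.55 and −0.01. The call was lost with the replicate number as a block, which left 0 member rows called, although the numbers did not pair the libraries. It was also lost without Saline-Heroin 2, Saline-Heroin 3, LPS-Heroin 2 or LPS-Heroin 3, where the log2 fold change lay between −0.85 and −1.03. The 5 fibroblast and meninges markers, all detected in every library, are given beside it. Their summed level was 14.9 to 31.7 FPKM in Saline-Heroin and 7.11 to 28.0 FPKM in LPS-Heroin (24.1 ± 7.51 and 14.3 ± 9.38, SD, n = 4, two-sided exact permutation p = 0.143), and the part of these cells in the Cd74 difference was not tested.

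In the SA experiment 0 of 6 tested member rows were DEGs in Heroin-SA against Saline-SA, where 5.45% of all genes were. All 6 log2 fold changes were negative, with a median of −0.30. They included −0.68 (SE 0.34, adjusted p = 0.481) for Psmb8, −0.71 (SE 0.41, adjusted p = 0.514) for the RT1-DMb-side Tap2 row and −0.01 (SE 0.11) for B2m, all by limma. Psmb8 passed the DEG limits when all 24 libraries shared 1 estimate of the spread (adjusted p = 0.275, limma), and without Saline-SA 1 (−0.96). The RT1-DMb-side Tap2 row passed them without Heroin-SA 3 (−0.99). Without Saline-SA 4 or without Heroin-SA 4, the libraries high in blood cell markers, 0 member rows were called, and the part of blood in these values was not tested. RT1-Da was below the filter, at −0.84 (SE 0.45, adjusted p = 0.590, limma) without it.

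**Figure D2:**
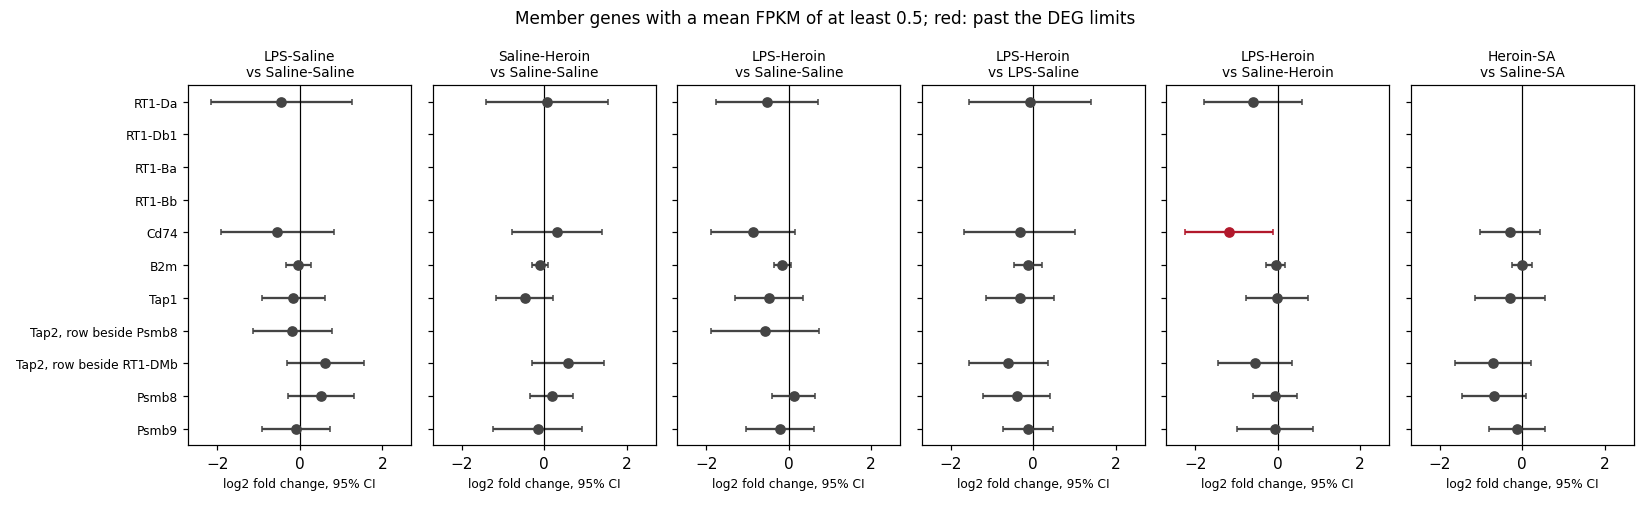
Log2 fold change (x axis, log2 of FPKM plus 0.1) of each member row (y axis) in the 6 pairwise comparisons, with 95% intervals. Rows below the mean of 0.5 FPKM are left blank. The interval of Cd74 in LPS-Heroin against Saline-Heroin, −2.25 to −0.11, is the only one that excludes 0, and the intervals of B2m are the narrowest.

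Over the 16 injection libraries, the main effect of LPS gave 0 member DEGs among 7 tested rows (1.77% of all genes). Cd74 stood nearest, at −0.86 (SE 0.42, adjusted p = 0.753, limma). It passed the limits in limma-voom on reads (−0.92) and with all 24 libraries in 1 fit (adjusted p = 0.811, limma). Leaving out Saline-Saline 1, LPS-Saline 4, Saline-Heroin 1, Saline-Heroin 4 or LPS-Heroin 4 had the same effect, and without LPS-Saline 4 the value was −1.15. Without LPS-Saline 3, Psmb8 passed the limits instead (0.38). The main effect of heroin gave 0 of 7 (2.46% of all genes), with Tap1 nearest at −0.40 (SE 0.23, adjusted p = 0.691, limma). Tap1 passed the limits without Saline-Saline 3 (−0.51) or LPS-Heroin 4 (−0.52). The interaction of LPS and heroin gave 1 of 7 (2.31% of all genes). That was the RT1-DMb-side Tap2 row, at −1.17 (SE 0.53, adjusted p = 0.992, limma). The call was lost without any 1 of 10 libraries (Saline-Saline 3 and 4, LPS-Saline 1 and 4, Saline-Heroin 1, 3 and 4, and LPS-Heroin 1, 2 and 3), down to −0.89 without LPS-Heroin 3. Without LPS-Saline 3, Psmb8 also passed the limits (−0.90).

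Reads of Tap2 fell on 2 rows. In the build rn6, which the expression table follows, the row ENSRNOG00000000455 lies at chr20:3995544-4009587 beside Psmb8, and ENSRNOG00000046031 at chr20:5198258-5212624 on the opposite strand beside RT1-DMb. RefSeq in GRCr8 lists Tap2 once, beside Psmb8. Each library had 18 to 76 Tap2 reads in all. The Psmb8-side row took 38.4% of them over all libraries, but from 4% in Saline-SA 3 (2 of 50 reads, 95% Wilson interval 1.10 to 13.5%) to 68.4% in Saline-Saline 1 (52 of 76 reads, 57.3 to 77.8%). These intervals do not overlap, and they cover counting error only. The SD of the share over 24 libraries was 19.5 percentage points, where counting alone gives 7.84.

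The 2 rows had a Pearson r of −0.04 over the 24 libraries with group means subtracted. Their sequences were not compared here. With the symbol on 2 rows, each alone is uncertain as a measure of Tap2. Summed, they stood at 1.32 ± 0.265 FPKM for Saline-SA, 1.29 ± 0.325 for LPS-Saline, 1.15 ± 0.519 for Saline-Saline, 0.996 ± 0.421 for Heroin-SA, 0.948 ± 0.455 for LPS-Heroin and 0.947 ± 0.236 for Saline-Heroin (SD, n = 4). The sum gave no DEG in any comparison. Its interaction was −0.30 (SE 0.49, adjusted p = 0.992, limma), and its heroin main effect −0.35 (SE 0.25, adjusted p = 0.772, limma).

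**Figure D3:**
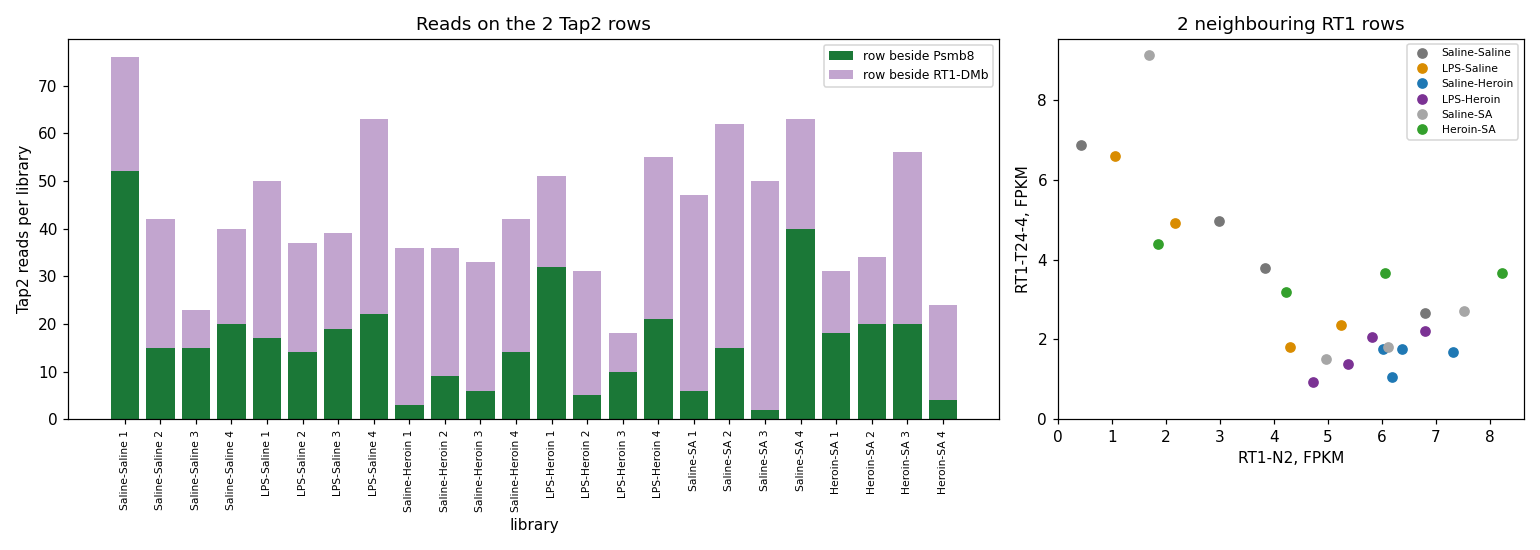
Left, reads (y axis) on the Psmb8-side and RT1-DMb-side Tap2 rows in each of the 24 libraries (x axis), where the Psmb8-side share runs from 4% in Saline-SA 3 to 68.4% in Saline-Saline 1. Right, FPKM of RT1-N2 (x axis) and RT1-T24-4 (y axis) per library, where the libraries lowest in RT1-N2 are high in RT1-T24-4.

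Other RT1 genes varied between animals of the same group more than most genes did. The table held 44 RT1 rows, of which 17 had a mean of at least 0.5 FPKM over the 24 libraries. In 15 of these 17 the within-group SD was above percentile 75 of all such genes, and RT1-Da was at percentile 93.3. The percentile is over genes of every level, and low genes vary more by counting. The RT1 rows of highest median, RT1-S3 and RT1-M3-1, were at percentiles 73.7 and 64.5. Low genes outside RT1 also stood high, with Pomp at 91.5 and Socs1 at 79.4. RT1 rows were not compared with genes of like level. RT1-CE16, a class I gene, had 0 reads in 18 libraries and 1 in Saline-SA 4. It stood at 5.13 FPKM in Saline-Saline 1, 5.33 in Saline-Saline 2, 6.20 in LPS-Saline 4, 5.48 in LPS-Heroin 4 and 3.21 in Heroin-SA 3. Such a presence in 5 libraries and near absence in 19 cut across the groups. RT1-CE16 overlaps RT1-A3 on the same strand, so its count is uncertain. RT1-DMb, which with RT1-DMa edits the peptides of class II, had at most 1 read in some libraries and up to 91 in others, from 0 to 2.55 FPKM. RT1-DMa ranged from 0.0895 to 4.62 FPKM, and its r with RT1-DMb was 0.02 over the 24 libraries. RT1-DMa and RT1-DMb were picked for naming after their values were seen. The rats were outbred and reads were counted against a single reference, and RT1 haplotypes were not measured. Their part in any RT1 value here was not tested.

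The pathway list beyond the members had 78 entries (other RT1 genes, peptide loading, class II processing, proteasome and regulators), of which 77 were in the table. Of 45 tested in LPS-Saline against Saline-Saline, 0 were DEGs, against 2.37% of all genes. In Saline-Heroin against Saline-Saline 2 of 47 were (4.26%, against 3.07% of all genes), RT1-S3 (−0.67, SE 0.18) and RT1-T24-4 (−1.43, SE 0.29), both class Ib genes of RT1. The same genes were the 2 of 47 in LPS-Heroin against Saline-Saline (5.43% of all genes), at −0.52 and −1.40. These comparisons share the Saline-Saline libraries. In LPS-Heroin against LPS-Saline 3 of 47 were DEGs (6.38%, against 2.29% of all genes), RT1-T24-4 (−1.09), RT1-N2 (1.03) and Pomp (1.00), a proteasome maturation factor. In LPS-Heroin against Saline-Heroin 1 of 49 was (2.04%, against 2.2% of all genes), Socs1 (−0.75), an inhibitor of interferon signaling. In Heroin-SA against Saline-SA 0 of 45 were, against 5.45% of all genes. The smallest adjusted p among these DEGs was 0.200 (RT1-T24-4 in LPS-Heroin against Saline-Saline, limma).

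The heroin main effect covered 3 of 47 list genes (6.38%, against 2.46% of all genes), RT1-T24-4 (−1.26), RT1-S3 (−0.54) and RT1-N2 (1.19). RT1-T24-4 had 2.66 to 6.86 FPKM in Saline-Saline, 1.81 to 6.61 in LPS-Saline, 1.05 to 1.76 in Saline-Heroin and 0.941 to 2.21 in LPS-Heroin. RT1-N2 ran the other way, with 0.436 to 6.80, 1.06 to 5.24, 6.02 to 7.32 and 4.72 to 6.81 FPKM. All 8 heroin-injected libraries thus lay at or below 2.21 FPKM of RT1-T24-4 and at or above 4.72 FPKM of RT1-N2. Of the saline-injected libraries, LPS-Saline 2 shared the first range (1.81 FPKM). Saline-Saline 4 (6.80 FPKM) and LPS-Saline 1 (5.24 FPKM) shared the second, and none lay in both. Both limits were read off these same values. Under self-administration both genes overlapped, with RT1-N2 at 1.68 to 7.52 FPKM in Saline-SA and 1.85 to 8.24 FPKM in Heroin-SA. The genes start 42.6 kb apart on chromosome 20, and with group means subtracted their r was −0.66 over 24 libraries. RT1-S3 starts between them, 13.4 kb from RT1-T24-4 (r = 0.43) and 29.3 kb from RT1-N2 (r = −0.56). The 3 list genes are thus neighbours that varied together, and their count cannot be read as that of independent genes. The interaction covered Socs1 alone (1 of 47, −1.20, where 2.31% of all genes were DEGs), and the LPS main effect 0 of 47 (1.77% of all genes).

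The rest of the machinery held few changes. The 6 tested peptide loading genes had medians of 3.30 to 221 FPKM, and the 5 class II processing genes 5.97 to 187 FPKM, and none was a DEG in any comparison. Lnpep, also on the peptide loading list, lay below the filter and was not tested. It had 0.394 to 0.991 FPKM in LPS-Saline (15 to 43 reads). Saline-Saline had 0.139 to 0.269 FPKM (6 to 12 reads) and LPS-Heroin 0.0482 to 0.361 FPKM (2 to 20 reads), neither overlapping LPS-Saline. Among tested genes, 621 of 15119 and 389 of 15069 did not overlap in these comparisons. Calr, a chaperone of class I loading, came close in the SA experiment. It stood at 214 to 239.5 FPKM in Saline-SA and 265 to 323 FPKM in Heroin-SA, with no overlap and a log2 fold change of 0.37 (SE 0.08, adjusted p = 0.255, limma), just under the fold limit. Canx, another such chaperone, had 93.5 to 102.7 FPKM against 106 to 119 FPKM (0.17, SE 0.06, adjusted p = 0.395, limma). In that comparison the groups did not overlap for 1021 of 15024 genes. Ctss, the protease that cuts the invariant chain, had 99.8 to 160.0 FPKM. Of the regulators, Ciita had a median of 0.0236 FPKM and Nlrc5, its class I counterpart, 0.136 FPKM, both below the filter. Rfx5, which binds the X box, had a median of 10.0 FPKM. Ifng, the gene of interferon-γ, had 0 reads in all 24 libraries, while its receptor genes Ifngr1 and Ifngr2 had medians of 24.4 and 15.6 FPKM. Lnpep, Calr, Canx, Rfx5, Ifng, Ifngr1 and Ifngr2 were picked for naming after their values were seen.

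Within groups, the class II genes and Cd74 moved together from library to library, and in part with the other members. With group means subtracted, Cd74 and RT1-Da had a Pearson r of 0.85 over the 24 libraries, Cd74 and RT1-Bb 0.79, and RT1-Ba and RT1-Bb 0.72. Over the 10 pairs of these 5 genes r was 0.48 to 0.85 (median 0.70). Over the 15 pairs of B2m, Tap1, the 2 Tap2 rows, Psmb8 and Psmb9 it was −0.09 to 0.70 (median 0.35). Tap1 and Psmb9, which lie head to head, had the highest of these, and Psmb8 and Psmb9 had 0.29. Over the 30 pairs of a class II gene or Cd74 with one of these other rows, r was −0.12 to 0.72 (median 0.47). These ranges overlap, so the class II genes did not stand apart as a separate block. RT1-Ba and RT1-Bb rest on medians of 1 and 2 reads per library. All points share library depth and the composition of the dissected tissue, and the r is a description. In the SA experiment alone, r of Cd74 with RT1-Da was 0.33 over 8 libraries, against 0.95 over the 16 injection libraries.

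Ratios of partner genes were set against the spread that counting alone gives. RT1-Da to Cd74 had a median log2 ratio of −3.08 and an SD of 0.64 over 24 libraries, where counting alone gives 0.37. Psmb9 to Psmb8 had 0.42 and an SD of 0.63 against 0.37 from counting, and the summed Tap2 rows to Tap1 had 0.36 and 0.50 against 0.32. RT1-Db1 to RT1-Da had an SD of 0.92 against 0.76 over the 23 libraries with reads on both. RT1-Bb to RT1-Ba had 1.34 against 1.27 over the 13 libraries with reads on both, a spread close to that of counting.

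Cd74 was also set against marker lists of other cell types, over the 24 libraries with group means subtracted. For r, each list was scored as the mean log2(FPKM + 0.1) of its markers with a mean of at least 0.5 FPKM, not as the summed level. Its r was 0.72 with the fibroblast and meninges list (Dcn, Lum, Col1a1, Col1a2, Slc6a13) and 0.49 with the border macrophage list. It was 0.45 with the red blood cell list and 0.42 with endothelium. It was −0.03 with the 11 microglia markers, whose summed level was 198 to 293 FPKM. RT1-Da had 0.68 with the fibroblast and meninges list and 0.08 with microglia, and B2m 0.68 and 0.27. For B2m the fibroblast and meninges list did not stand out. B2m also had 0.68 with the T cell list (2 markers used, Cd4 and Lck), 0.63 with red blood cell and 0.53 with astrocyte markers. The T cell markers Cd3e, Cd3g and Cd3d, not used, had 0 reads in 8, 11 and 16 libraries. Without LPS-Saline 4 the r of Cd74 with the fibroblast and meninges list was 0.54 and that of B2m 0.43. Saline-Saline 2 went against the pattern, with 12.8 FPKM of Cd74 at a list level of 6.38 FPKM, and without it the r of Cd74 was 0.87. B cell markers were nearly absent, with a summed level of 0 to 0.622 FPKM over 5 genes. Of 6 dendritic cell markers Flt3 and Zbtb46 were above 1 FPKM in each library, while Clec9a and Xcr1 were at 0 reads in 15 and 16 libraries. The part of any cell type in the members' levels was not tested.

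**Figure D4:**
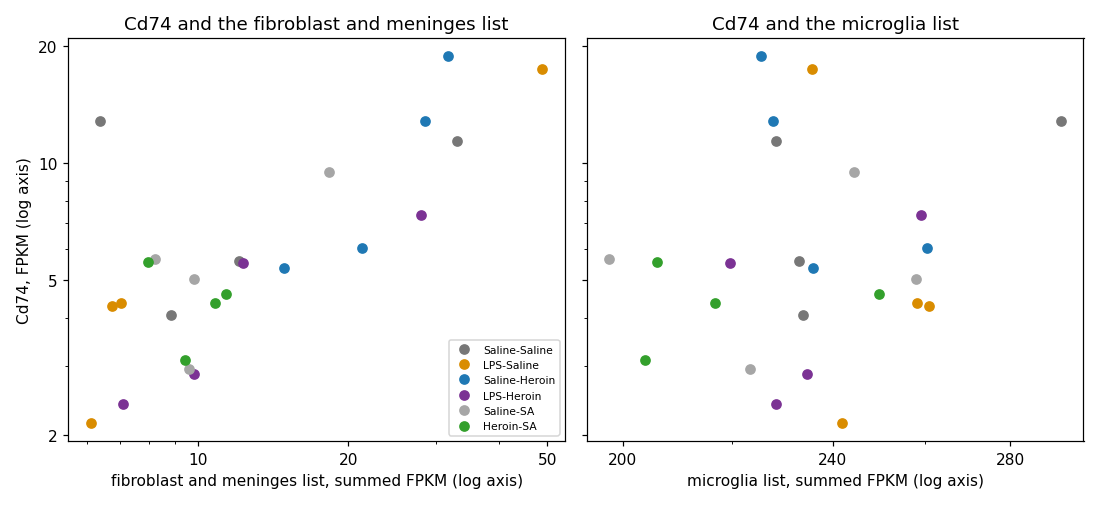
Cd74 in FPKM (y axis, log scale) against the summed FPKM (x axis, log scale) of the fibroblast and meninges markers (left) and the microglia markers (right), 1 point per library and colored by group. The left panel rises with r = 0.72 after subtraction of group means, with Saline-Saline 2 off the line, and the right panel shows no trend (r = −0.03).

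**Figure D5:**
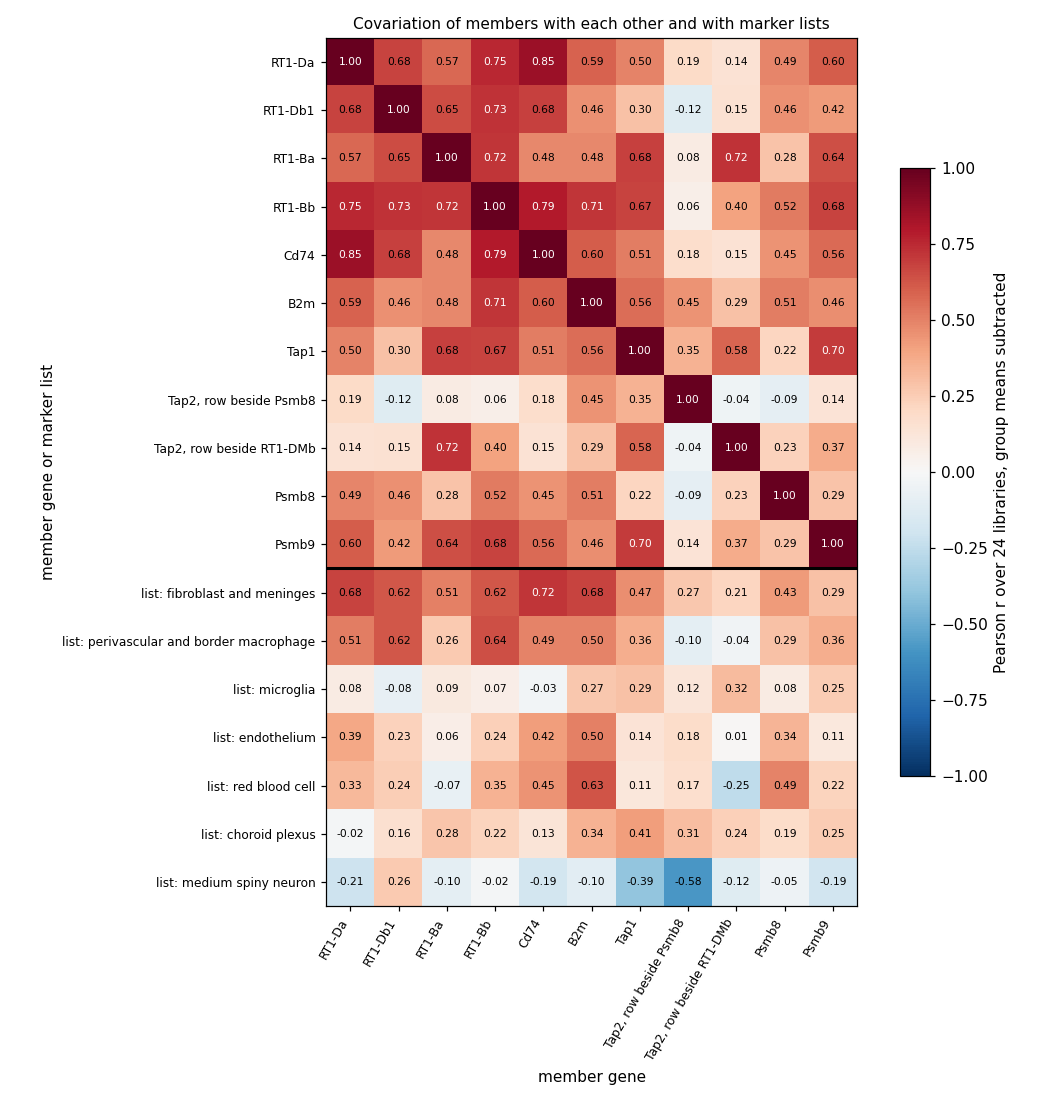
Pearson r over 24 libraries, with group means subtracted, between the 11 member rows (columns) and the members and 7 marker lists (rows). The class II genes and Cd74 have 0.48 to 0.85 among themselves and −0.12 to 0.72 with the other members. The 2 Tap2 rows have −0.04 with each other.

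Genes outside the set that resembled the members were sought among 15111 genes. The 5 with the highest within-group r to Cd74 were Olfml3 (0.84), Foxc1 (0.83), Timp1 (0.83), Parva (0.81) and Col6a2 (0.81). Col6a2 encodes a collagen chain, Timp1 an inhibitor of matrix proteases and Foxc1 a transcription factor of the developing meninges. These functions are background and leave out Olfml3, the gene of highest r, and Parva, so they assign Cd74 to no cell type. For B2m they were Cebpd (0.95), Tpm4 (0.83), Bgn (0.82), Nxn (0.81) and Ctsh (0.80), of which Cebpd is an acute-phase transcription factor and Bgn a proteoglycan. Cebpd ranged from 5.02 to 9.48 FPKM. For Tap1 they were Cxcl16 (0.80), Rapsn (0.80), RT1-CE16 (0.79), Bdh2 (0.78) and Slc35g1 (0.77). For Psmb8 they were Cct7 (0.77), Coa4 (0.77), Ing1 (0.75), Hbb-b1 (0.73) and Utp23 (0.73).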

How the data were processed

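The authors deposited 1 table of FPKM values for 24 libraries and 32545 genes, made per the labels from directional poly-A libraries with fastp, HISAT2 and featureCounts on build rn6. The annotation release and tool versions are not given in the sources used here. FPKM multiplied by gene length gave whole multiples of a step per library in 100.0% of values (tolerance 0.01), so read counts were recovered, and they served for depth and 1 alternative test. Groups came from the sample titles. Values were tested as log2(FPKM + 0.1) with limma 3.58.1 (R 4.3.3), with a mean of at least 0.5 FPKM in the groups compared and Benjamini-Hochberg adjustment over all genes tested. The pseudocount makes fold changes of low genes look smaller than they are. Pairs were fitted on their 8 libraries, and main effects and interaction on the 16 injection libraries. The fits were tested on simulated data, with changes set only in genes above the level of most members and with a smaller spread. That test therefore does not show how well changes of the low members are detected. Exact permutation tests were made with scipy 1.17.1. Correlations used residuals from group means, and those with marker lists used the mean log2(FPKM + 0.1) of the markers above the filter. The named genes were all members, list genes past the DEG limits, fixed subunits and regulators, and the 5 genes of highest residual r to Cd74, B2m, Psmb8 and Tap1. Members and lists were chosen with earlier results of these data known. Promoters came from RefSeq (GRCr8) by symbol. Alternatives covered the pseudocount, filter, normalization, pooled spread, robust moderation, limma-voom on reads, replicate block and leaving out each library. A few further genes were picked after their values were seen, as said beside them. The study's methods name 6 sequenced samples per group, and 4 per group were analysed here. They give a shorter interval between LPS and heroin than the labels, whose 1 week is used here.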

Additional observations from a re-analysis of the deposited data

Results flagged for a closer look

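Among 66 sets of 4 libraries (11 member rows in 6 groups), 11 had a library far from the other 3 by Dixon's criterion. For independent normal values chance gives about 1 in 20, but these rows share libraries and several are near 0 reads, so the count cannot be read against that share. LPS-Saline 4 accounted for 4 of them, at 2.90 FPKM of RT1-Da, 0.908 of RT1-Ba, 0.682 of RT1-Bb and 17.4 of Cd74, each the highest of its group. RT1-Ba was also far above its group in Saline-Heroin 3 (0.534 FPKM, 11 reads) and Heroin-SA 3 (0.273 FPKM, 5 reads). RT1-Bb was far above in LPS-Heroin 4 (0.251 FPKM, 16 reads) and RT1-Da in Heroin-SA 1 (0.609 FPKM, 21 reads). The Psmb8-side Tap2 row was far above in Saline-Saline 1 (1.33 FPKM, 52 reads) and far below in Heroin-SA 4 (0.110 FPKM, 4 reads). Psmb8 was far above in Saline-Saline 2 (1.05 FPKM, 33 reads).

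The effect of heroin on the RT1-DMb-side Tap2 row passed the DEG limits for a difference between rats with and without LPS, with an interaction of −1.17 on the log2 scale (limma, adjusted p = 0.992). With both Tap2 rows summed it was −0.30.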

How the results depend on the processing

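Limits: with 4 libraries per group and 7 to 100 reads on RT1-Da, only large differences of the low members could be detected, and p-values measure the spread between these samples. Of the member DEGs, Cd74 in LPS-Heroin against Saline-Heroin was a DEG under every normalization, pseudocount and filter tried and in limma-voom, and was lost with a replicate block (−1.18), which left 0 member rows called. The count went from 1 to 0 at an adjusted p under 0.05, also for the interaction, and the interaction count was 0 with a mean of at least 1 FPKM, where the Tap2 row is not tested. Same-numbered libraries had correlations of −0.15 to 0.15, so the numbers do not pair them, and the block changed no other count of member rows except that of the LPS main effect. Member rows called became 1 in Saline-Heroin against Saline-Saline and the heroin main effect without the filter, in Heroin-SA against Saline-SA with all groups in 1 fit, and in the LPS main effect with all groups in 1 fit, limma-voom or the replicate block (Cd74, −0.86). Leaving out each library gave 0 to 1 member rows called in 8 comparisons and 0 to 2 in the interaction. It gave −0.85 to −1.46 for Cd74 in LPS-Heroin against Saline-Heroin and −0.89 to −1.40 for the Tap2 row.

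DEG counts over all genes without the filter were 582 (LPS-Saline against Saline-Saline), 548 (LPS-Heroin against LPS-Saline), 524 (LPS-Heroin against Saline-Heroin), 516 (LPS), 628 (heroin) and 565 (interaction). Without the fold limit they were 1002, 995, 1704, 693, 637 and 1725 in the pairwise comparisons in the order of the report, and 1008, 1226 and 607 for LPS, heroin and interaction. At an adjusted p under 0.05 each was 0. They were 310 to 625 on leaving out each library in LPS-Saline against Saline-Saline (625 without LPS-Saline 3), 366 to 727 in Saline-Heroin against Saline-Saline (727 without Saline-Heroin 2) and 214 to 423 for LPS (423 without LPS-Saline 3). By median instead of mean, the order of groups had 0 neighbouring pairs past p of 0.05. Ratios from reads per kilobase were identical. Chosen after seeing the data, r of Cd74 with RT1-Da was 0.33 in the SA experiment alone. The causes of these changes were not tested.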
